A study of Homo sapiens with 12 samples.

Results

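Long noncoding RNAs (lncRNAs) that were measured at a solid level in MDA-MB-453 cells were described here, before and after a short androgen treatment. MDA-MB-453 is an established human breast cancer line without estrogen receptor alpha. The 396 genes were taken from 896 genes that the authors' deposited table of 14559 genes types as lncRNA, and were chosen by their average level, at least 2.0 on the log2 scale of counts scaled to library size (counts per 1000000, CPM), which is 4 CPM. The level was measured in these same libraries, so the height of the 396 is a consequence of the choice and is given as a description only. Just inside the limit were CDKN2B-AS1 at 2.00, AL031714.1 at 2.01 and Z83843.1 at 2.02 log2 CPM in the authors' deposited table, and just outside it were AL133367.1 at 2.00, LINC01291 at 2.00 and LINC01409 at 1.99, the first of each set differing only in the third decimal. A further 499 lncRNA genes of that table were below the limit and 1 more gene is not described here.

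There were 2 groups of 6 libraries each, all of the same line, for which the labels name no transgene or gene deletion. Cells grown for 72 h in high-glucose medium with 10% fetal bovine serum received either 0.001% ethanol, called vehicle, or dihydrotestosterone (DHT) at 10 nM, a natural androgen formed from testosterone, for 6 h. Replicates came from successive passages of the one line, so p-values measure the spread between passages of a single cell line. The serum is not described as hormone-depleted. Libraries were read as single reads of 40 bp. The design text names poly-A RNA while the protocol names a kit for total RNA, so lncRNAs without a poly-A tail may or may not be represented.

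An lncRNA is a transcript longer than a short regulatory RNA that is not translated into a known protein. Some build nuclear bodies, coat a chromosome or hold back RNA-binding proteins, others carry small nucleolar RNAs (snoRNAs) or microRNAs inside their introns, and many start beside the promoter of a coding gene and are named for it, as antisense (-AS) or divergent (-DT) transcripts. Androgens are steroid hormones that enter the cell and alter transcription, raising some genes and lowering others within hours. Several lncRNAs have been described in prostate cells as androgen targets. Whether an lncRNA changes alone or together with the coding gene next to it is a common first question for such a transcript, and it is the question taken up after the changes themselves.

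The shallowest library, vehicle replicate 6, held 4346465 counts and the deepest, DHT replicate 2, held 25678781. Every one of the 396 lncRNAs passed the filter on low counts, and the member with the fewest vehicle counts still had 222 over the 6 libraries. Together they held between 0.733% and 0.891% of all counts in 10 libraries. The libraries labelled replicate 2 stood apart in both groups, with 0.433% in the vehicle library and 0.457% in the DHT library, and 173 of the 396 lncRNAs were lower in both of them than in all 10 others, while 32 were higher in both. Results are therefore given with all 12 libraries and without these 2, which is an alternative added after the data were seen. The luminal epithelial markers KRT8, KRT18, KRT19, EPCAM and CDH1 were all detected, with EPCAM, a cell adhesion protein of epithelia, at 292 ± 39.0 CPM without and 267 ± 14.5 CPM with DHT (mean ± SD, n = 6). None of the 5 leukocyte and none of the 4 endothelial markers passed the filter, of 5 basal markers only MYH11 did, and of 5 fibroblast markers COL1A1, COL1A2 and COL3A1 did. The part of these collagen genes in any result was not tested. In bulk RNA, fewer cells that make a transcript and less of it per cell cannot be told apart.

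**Figure D1:**
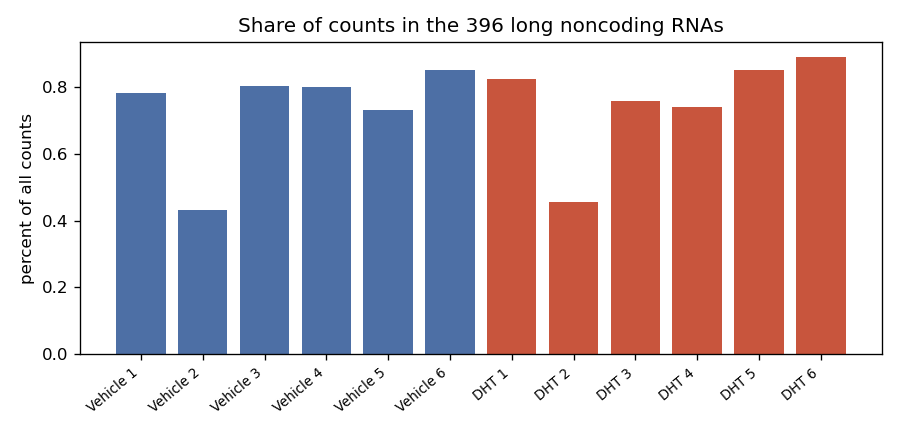
Share of each library's counts that fell in the 396 lncRNAs, in percent of all counts (vertical axis from 0), 1 bar per library, vehicle in blue and DHT in red. The replicate 2 library of either group is the lowest, at 0.433% and 0.457%, and the 10 others lie between 0.733% and 0.891%.

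The sequences below belong to the lncRNAs whose change passed the test and whose start was found in RefSeq (GRCh38.p14), and are shown so that the transcripts behind the results can be recognised. Promoter windows run from 250 bases before to 50 bases after the RefSeq start, 5′ to 3′ on the gene's strand, and the transcribed 50 bases are in capitals. LINC02233 lies on chromosome 4 (minus strand, chr4:159777735-159778034).
LINC02233: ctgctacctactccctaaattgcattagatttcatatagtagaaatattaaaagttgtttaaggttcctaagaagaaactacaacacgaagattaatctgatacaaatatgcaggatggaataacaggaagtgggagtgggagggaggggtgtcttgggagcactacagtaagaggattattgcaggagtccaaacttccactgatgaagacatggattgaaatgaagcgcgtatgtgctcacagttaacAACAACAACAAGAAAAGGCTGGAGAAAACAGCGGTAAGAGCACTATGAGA
LINC02747 lies on chromosome 11 (minus strand, chr11:69479908-69480207), in a window that differs from the start given by the deposited table, whose gene runs from 69475567 to 69481545.
LINC02747: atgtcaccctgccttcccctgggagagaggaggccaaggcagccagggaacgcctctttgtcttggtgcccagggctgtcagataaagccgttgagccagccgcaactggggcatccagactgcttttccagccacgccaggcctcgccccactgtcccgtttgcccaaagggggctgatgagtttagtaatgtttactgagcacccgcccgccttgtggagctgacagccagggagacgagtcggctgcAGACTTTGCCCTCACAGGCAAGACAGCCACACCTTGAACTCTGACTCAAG
EPB41L4A-DT lies on chromosome 5 (plus strand, chr5:112419333-112419632). This window is rich in G and C and lies between the start of the lncRNA and that of EPB41L4A, which is transcribed the other way from a start 270 bp from the lncRNA's.
EPB41L4A-DT: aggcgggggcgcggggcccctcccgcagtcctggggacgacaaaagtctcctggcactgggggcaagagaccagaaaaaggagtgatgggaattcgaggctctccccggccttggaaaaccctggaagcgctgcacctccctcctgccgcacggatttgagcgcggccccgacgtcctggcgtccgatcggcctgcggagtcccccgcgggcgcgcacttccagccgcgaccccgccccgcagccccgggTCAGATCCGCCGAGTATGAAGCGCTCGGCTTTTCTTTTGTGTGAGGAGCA
ZBED5-AS1 lies on chromosome 11 (plus strand, chr11:10857967-10858266), within the body of ZBED5, which is transcribed from the other strand.
ZBED5-AS1: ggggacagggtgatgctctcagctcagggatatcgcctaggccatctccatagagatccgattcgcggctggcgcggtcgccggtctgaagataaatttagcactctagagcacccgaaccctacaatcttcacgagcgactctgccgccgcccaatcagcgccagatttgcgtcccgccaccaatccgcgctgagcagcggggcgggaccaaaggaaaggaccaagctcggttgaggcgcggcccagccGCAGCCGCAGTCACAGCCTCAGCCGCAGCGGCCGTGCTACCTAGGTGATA
For a pair without a window in that table the first 150 bases of the longest GENCODE v29 (GRCh38) transcript are shown in lower case. OGFRP1, the member that rose, has a longest transcript of 1242 bases (ENST00000332965.3) from a gene on the plus strand of chromosome 22, between 42269703 and 42279534.
OGFRP1: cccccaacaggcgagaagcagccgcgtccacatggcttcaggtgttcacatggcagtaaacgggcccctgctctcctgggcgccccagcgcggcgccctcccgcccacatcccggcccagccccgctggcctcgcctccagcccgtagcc
AC010735.2, divergent from IRS1, has a longest transcript of 584 bases (ENST00000607970.1) from a gene on the plus strand of chromosome 2, between 226800146 and 226813741.
AC010735.2: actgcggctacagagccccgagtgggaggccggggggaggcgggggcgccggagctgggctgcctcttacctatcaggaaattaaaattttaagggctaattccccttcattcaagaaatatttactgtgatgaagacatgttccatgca

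With all 12 libraries, 9 of the 396 lncRNAs passed the test for a difference between DHT and vehicle, 8 of them lower and 1 higher after DHT. The lowered ones were LINC02233, LINC02747, EPB41L4A-DT, AC010735.2, AL035661.1, ZBED5-AS1, AC007493.1 and AL162458.1, and the raised one was OGFRP1. Falls took 2.02% of the lncRNAs, beside 0.880% of all 16355 genes tested, and the rise took 0.253%, beside 1.96% of all genes. The test was edgeR's quasi-likelihood test, adjusted over all genes by Benjamini and Hochberg's method with 0.05 as the threshold, and every edgeR adjusted p below comes from it. The other 387 did not pass. Before adjustment, p was under 0.05 for 26 lncRNAs with a higher level in DHT libraries (6.57%, beside 6.59% of all genes) and 39 with a lower one (9.85%, beside 5.41%). The median log2 fold change over the 396 was -0.08, beside -0.05 over all genes tested, and the median size of the change, regardless of sign, was 0.18.

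Without both replicate 2 libraries, 19 lncRNAs were lowered (4.80%, beside 1.90% of all genes) and 15 were raised (3.79%, beside 3.70% of all genes). All 9 of the first set were among these 34. Thus the share raised was under the background with 12 libraries and close to it with 10, and the share lowered was above the background in both. The background genes had no level limit to meet, while 4 of the 9 met it partly through their vehicle libraries. The comparison of shares is therefore a description. In the authors' deposited table, 16 of the 396 were lowered (4.04%, beside 1.59% of its genes) and 14 raised (3.54%, beside 2.66%) at an adjusted p under 0.05. Of these 30, 8 were among the 9 and 25 among the 34. AL162458.1 was the one that passed here and not in the authors' deposited table, where its adjusted p is 0.118.

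**Figure D2:**
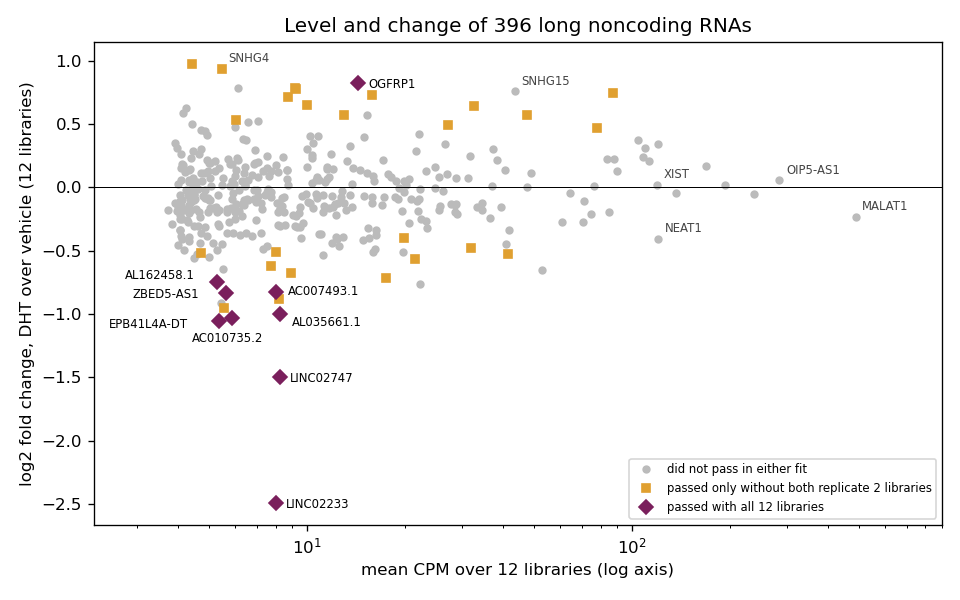
Mean level in CPM over 12 libraries (horizontal log axis) against the log2 fold change of DHT over vehicle (vertical axis) for each of 396 lncRNAs. Purple diamonds mark the 9 that passed with all libraries, orange squares the 25 that passed only without both replicate 2 libraries, and the 9 have a median level of 8.01 CPM while MALAT1, at the far right, lies near 0.

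The largest fall was that of LINC02233, an intergenic transcript (ENSG00000250488, chromosome 4, 159665833 to 159777828, minus strand). Its vehicle libraries had 6.01 CPM at the lowest, 13.4 at the median and 21.1 at the highest, and its DHT libraries 1.09, 2.48 and 3.38. Every DHT library was below every vehicle library, and the vehicle values were widely spread. The log2 fold change was -2.49 ± 0.36 (SE; edgeR adjusted p = 0.00130), and -2.48 without both replicate 2 libraries. LINC02747 (ENSG00000255774, chromosome 11, minus strand), a transcript upstream of the cyclin D1 gene region, had 7.15, 13.4 and 13.96 CPM in vehicle and 2.98, 3.50 and 6.97 CPM in DHT libraries, again lowest, median and highest. These groups did not overlap either, though the lowest vehicle and the highest DHT library were close. Its log2 fold change was -1.50 ± 0.25 (edgeR adjusted p = 0.00395).

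EPB41L4A-DT (ENSG00000278921, chromosome 5, 112419583 to 112420978, plus strand) had 5.68, 7.20 and 9.64 CPM in vehicle and 2.88, 3.11 and 5.21 CPM in DHT libraries. The groups did not overlap, with 1 DHT library, replicate 5, well above its 5 fellows. This gave a log2 fold change of -1.06 ± 0.19 (edgeR adjusted p = 0.00696). AC010735.2 (ENSG00000272622) had 7.16, 7.98 and 8.49 CPM in vehicle and 3.19, 3.63 and 5.76 CPM in DHT libraries. Its vehicle values were the tightest of the 9, at 7.89 ± 0.527 CPM (mean ± SD, n = 6), and no DHT library reached them. The log2 fold change was -1.03 ± 0.16 (edgeR adjusted p = 0.00279).

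ZBED5-AS1 (ENSG00000247271, chromosome 11, 10858179 to 10908972, plus strand) had 6.22, 6.56 and 9.49 CPM in vehicle and 2.97, 4.04 and 5.01 CPM in DHT libraries, without overlap. Its log2 fold change was -0.84 ± 0.17 (edgeR adjusted p = 0.0142). AL162458.1 (ENSG00000285796, chromosome 20, 45926518 to 45935055, minus strand) is a transcript of a single long exon, 8538 bases in all. It had 5.26, 6.58 and 7.59 CPM in vehicle and 2.96, 4.13 and 4.38 CPM in DHT libraries, without overlap. This gave a log2 fold change of -0.75 ± 0.15 (edgeR adjusted p = 0.0124).

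The calls of AL035661.1 and AC007493.1 depended on single libraries and on the filter, while their fold changes kept their sign. Over all fits with one library left out, the log2 fold change of AL035661.1 ran from -0.84 (without vehicle replicate 2) to -1.18 (without DHT replicate 2). That of AC007493.1 ran from -0.63 (without vehicle replicate 5) to -0.89 (without vehicle replicate 4). AL035661.1 (ENSG00000274173, chromosome 20, 24931840 to 24932983, plus strand) had 7.90, 8.92 and 16.6 CPM in vehicle and 4.47, 4.70 and 8.52 CPM in DHT libraries, and its groups overlapped, since DHT replicate 2 was above the lowest vehicle library. Its log2 fold change was -0.999 ± 0.24 (edgeR adjusted p = 0.0365). The call was lost without DHT replicate 1 (adjusted p = 0.0963), 3 (0.0992), 4 (0.0966), 5 (0.0682) or 6 (0.0960) and without vehicle replicate 3 (0.0545) or 5 (0.0700), with log2 fold changes between -0.89 and -1.05. It was also lost with no filter on low counts (-0.97, 0.0626). AC007493.1 (ENSG00000260573, chromosome 16, 50407184 to 50546347, plus strand) had 7.52, 9.69 and 16.4 CPM in vehicle and 4.90, 5.49 and 6.95 CPM in DHT libraries, without overlap, and vehicle replicate 5 alone held the highest value. This gave a log2 fold change of -0.82 ± 0.20 (edgeR adjusted p = 0.0374). That call was lost without DHT replicate 1 (adjusted p = 0.0591), 2 (0.0595), 3 (0.0955), 4 (0.0966), 5 (0.0532) or 6 (0.0928) and without vehicle replicate 1 (0.0747), 3 (0.0729) or 6 (0.0671), with log2 fold changes between -0.78 and -0.88, and with no filter (-0.80, 0.0587). Both passed without the replicate 2 libraries, at edgeR adjusted p = 0.00491 for AL035661.1 and 0.0214 for AC007493.1.

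OGFRP1 (ENSG00000182057), named as a pseudogene of the opioid growth factor receptor and typed as lncRNA, was the single lncRNA raised with all libraries. Its vehicle libraries had 8.54, 10.1 and 12.5 CPM and its DHT libraries 16.3, 18.9 and 20.4 CPM. All 6 DHT libraries were above all 6 vehicle libraries, including the replicate 2 pair. The log2 fold change was 0.82 ± 0.13 (edgeR adjusted p = 0.00270). Short reads that match both the copy and its parent could be split between them, which leaves its level uncertain. The parent gene OGFR had 94.1 ± 10.6 CPM without and 91.2 ± 7.12 CPM with DHT, a log2 fold change of -0.05 (edgeR adjusted p = 0.947).

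**Figure D3:**
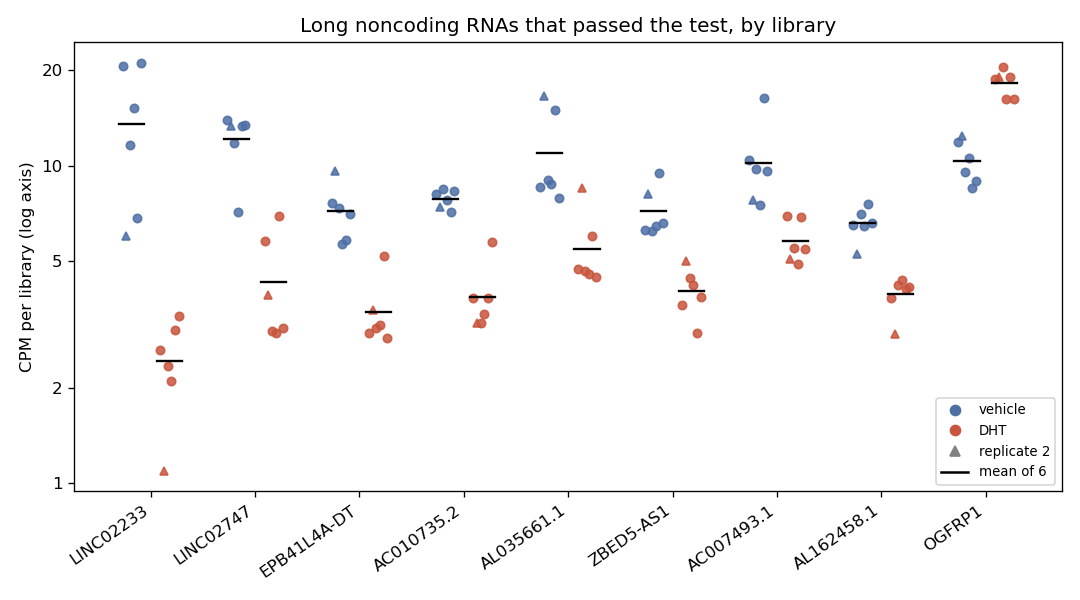
CPM in each library (vertical log axis) of the 9 lncRNAs that passed the test, vehicle in blue and DHT in red, with the replicate 2 libraries as triangles and a black bar at the mean of 6. The groups are separate for 8 genes and overlap for AL035661.1, and OGFRP1 alone is higher in DHT.

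The 9 lncRNAs shared few features beyond the change. Their median level was 8.01 CPM, against 8.06 CPM over the 396, and their median exon length was 3342 bases, against 4153. They lie on 7 chromosomes. The change was at least 2-fold in LINC02233, LINC02747, EPB41L4A-DT and AC010735.2, and in no other of the 396. The groups did not overlap in 8 of the 9. Over all 396, 11 lncRNAs had every DHT library below every vehicle library (2.78%, beside 0.991% of all genes) and 3 had every DHT library above (0.758%, beside 2.28%). The 6 of these 14 that did not pass with 12 libraries were CYTOR, AC009236.1, BAIAP2-DT and LINC02593 on the lower side and DENND5B-AS1 and AC106738.2 on the higher. CYTOR, a cytoplasmic lncRNA often reported in tumours, had 27.9 ± 12.1 CPM without and 16.4 ± 1.53 CPM with DHT (mean ± SD, n = 6; edgeR adjusted p = 0.0874). For 46 lncRNAs one group's mean was under 4 CPM and the other's at or above it, 4 of the 9 among them, so those passed the level limit partly through the group where they were higher.

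The 25 lncRNAs that passed only without both replicate 2 libraries were named after their values were seen. The 14 raised ones were AL133325.3, SNHG4, MNX1-AS1, COX10-AS1, AL162595.1, AP003119.3, SNHG20, DUBR, LINC00665, AL033523.1, SNHG17, DENND5B-AS1, PVT1 and SNHG3. SNHG17, a snoRNA host, had 20.5, 40.3 and 47.5 CPM in vehicle and 30.02, 60.1 and 67.1 CPM in DHT libraries (lowest, median and highest of 6), and the lowest of either group was its replicate 2 library. Its log2 fold change was 0.57 with 12 libraries (edgeR adjusted p = 0.242) and 0.58 without the pair (0.00143), so the size held and the spread around it shrank. LINC00665 went the other way in level, with replicate 2 the highest of either group (39.0 CPM in vehicle, 51.4 CPM in DHT), and its log2 fold change was 0.65 with 12 libraries (edgeR adjusted p = 0.0511) and 0.73 with 10 (0.000520). AL162595.1, one of the more abundant of the 25, had 65.6 ± 21.4 CPM without and 110 ± 31.3 CPM with DHT, a log2 fold change of 0.74 with 12 (edgeR adjusted p = 0.220) and 0.75 with 10 libraries (0.0050).

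The 11 lowered ones were LINC01341, SAP30L-AS1, AC004816.1, ID2-AS1, AC009236.1, AL035425.3, SILC1, AL353622.1, AC026401.3, DLEU2 and BAIAP2-DT. ID2-AS1 overlaps the gene of ID2, an inhibitor of basic helix-loop-helix transcription factors. It had 7.81, 11.4 and 14.1 CPM in vehicle and 4.92, 7.10 and 8.26 CPM in DHT libraries, groups that overlapped slightly, and edgeR adjusted p-values of 0.0662 with 12 and 0.0279 with 10 libraries. BAIAP2-DT had no overlap between groups, at 22.6 ± 2.23 CPM without and 17.1 ± 0.808 CPM with DHT, with edgeR adjusted p-values of 0.0529 and 0.0391. LINC01341 had the largest fall of the 11 with a log2 fold change of -0.96 with 12 (edgeR adjusted p = 0.539) and -0.92 with 10 libraries (0.0187), and its replicate 2 libraries held only 1.33 CPM in vehicle and 0.319 CPM in DHT.

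Each lncRNA was then set beside the nearest protein-coding gene that was tested. Of the 396, 176 overlapped that gene on the opposite strand and 33 on the same strand, 70 were divergent with starts within 5 kb, 27 lay within 5 kb in another arrangement, 59 lay 5 to 100 kb away and 31 lay farther. For 54 lncRNAs a coding gene that was not tested lay nearer. Among several overlapping or equally near coding genes, the one of highest mean CPM was taken. It need not be the gene that an lncRNA is named for, as with CBR3-AS1 and SAP30L-AS1. The fold changes of lncRNA and neighbour had the same sign in 241 of 396 pairs. Their Pearson correlation over the 396 pairs was 0.32 and the Spearman correlation 0.36. By arrangement, the Pearson correlation was 0.57 for the 70 divergent pairs, 0.41 for the 33 overlapping on the same strand, 0.35 for the 176 overlapping on opposite strands, 0.35 for the 31 beyond 100 kb, 0.26 for the 27 others within 5 kb and 0.18 for the 59 at 5 to 100 kb. These are descriptions, since every pair comes from the same 12 libraries, and differences between arrangements were not tested. Whether counting used strand is not stated in the labels, so reads in the shared exons of overlapping genes cannot be told apart. Some exon bases were shared in 159 pairs, and at least 50% of the lncRNA's exon bases in 4.

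Of the 9 lncRNAs that changed, 1 had a neighbour that also passed the test. EPB41L4A, the coding gene divergent from EPB41L4A-DT, encodes a cytoskeleton-linked protein of the band 4.1 family and fell from 90.6 ± 21.1 to 52.9 ± 11.2 CPM (mean ± SD, n = 6), a log2 fold change of -0.78 ± 0.18 (edgeR adjusted p = 0.0371). The call of EPB41L4A was lost without DHT replicate 1 (adjusted p = 0.0756), 3 (0.0942), 4 (0.0966) or 6 (0.0684) and without vehicle replicate 1 (0.0877), 3 (0.0849), 4 (0.0983) or 6 (0.0818), with log2 fold changes between -0.70 and -0.81. No exon bases are shared in that pair. IRS1, the insulin receptor substrate whose gene starts 387 bp from AC010735.2, had 107 ± 15.8 CPM without and 73.8 ± 14.6 CPM with DHT, a log2 fold change of -0.54 ± 0.15 that did not pass (edgeR adjusted p = 0.0740). The other 7 neighbours had log2 fold changes between -0.21 and 0.28 and edgeR adjusted p-values from 0.509 to 0.962. They were RAPGEF2, an activator of Rap proteins, 305659 bp from LINC02233, CCND1, the cyclin D1 gene, 159611 bp from LINC02747, APMAP, a membrane-bound protein, 29942 bp from AL035661.1, NKD1, an inhibitor of Wnt signalling, 2049 bp from AC007493.1, and the overlapping genes ZBED5, PCIF1, an RNA cap methyltransferase, and TCF20, a transcriptional coregulator. ZBED5-AS1 shares 13.4% of its exon bases with ZBED5, AL162458.1 shares 1.43% with PCIF1, and OGFRP1 shares none with TCF20.

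The difference between the change of an lncRNA and that of its neighbour was tested with limma on the log2 ratio of the pair in each library, over all 896 lncRNA genes of the authors' table. It passed for 13 of 896 (1.45%), among which were 7 of the 396 (1.77%). LINC02233 differed from RAPGEF2 by -2.15 ± 0.24 on the log2 scale (limma adjusted p = 0.000282), LINC02747 from CCND1 by -1.48 ± 0.31 (0.0206) and AL035661.1 from APMAP by -1.15 ± 0.24 (0.0206). The other 4 were pairs in which the coding gene moved. The 6 other changed lncRNAs did not pass this test with all 12 libraries, so a difference from their neighbours was not shown there. EPB41L4A-DT differed from EPB41L4A by -0.27 ± 0.24 (limma adjusted p = 0.999). Without both replicate 2 libraries 21 of 896 pairs passed (2.34%), among them those of 13 of the 396 (3.28%). The pair of AL162458.1 and PCIF1 was among these 13 (limma adjusted p = 0.0284, beside 0.753 with all 12 libraries). With all but one library, LINC02747 did not pass without DHT replicate 3, 4 or 6 or vehicle replicate 1, 3 or 6 (limma adjusted p from 0.0556 to 0.0705), and AL035661.1 did not without DHT replicate 1, 3, 4 or 6 or vehicle replicate 4 (0.0520 to 0.0644).

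Coding genes that changed had a well-measured lncRNA beside them in 23 cases, which concern 20 coding genes since some of them, such as WNT7B and EPB41L4A, adjoin a pair of lncRNAs. In 16 of the 23 the lncRNA's fold change had the sign of the neighbour's, beside 241 of all 396, and in 7 the opposite. WNT7B, a Wnt ligand, rose from 21.6 ± 4.25 to 99.2 ± 16.0 CPM, a log2 fold change of 2.195 (edgeR adjusted p = 1.77e-06). The lncRNAs nearest to it had no such rise. LINC00899, 62745 bp away, had 15.3 ± 4.08 CPM without and 14.5 ± 2.25 CPM with DHT, and its pair difference was -2.23 ± 0.32 (limma adjusted p = 0.00143). PRR34-AS1, 76543 bp away, had 8.72 ± 5.24 and 6.33 ± 1.41 CPM, with 19.3 CPM in vehicle replicate 5, and its pair difference was -2.53 ± 0.30 (limma adjusted p = 0.000303).

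MYC, which encodes a transcription factor that drives growth, had 38.4 ± 10.7 CPM without and 138 ± 24.3 CPM with DHT, a rise of 1.85 on the log2 scale (edgeR adjusted p = 8.42e-05). PVT1, the lncRNA 51575 bp from it that is often co-amplified with it in tumours, had 14.9, 22.6 and 29.5 CPM in vehicle and 19.8, 33.9 and 35.4 CPM in DHT libraries (lowest, median and highest). This gave a log2 fold change of 0.50 ± 0.17, which did not pass with 12 libraries (edgeR adjusted p = 0.200) and passed with 10 (0.00902). The pair difference was -1.38 ± 0.29 (limma adjusted p = 0.0220), that is, the change of PVT1 was the smaller. It did not pass without DHT replicate 1, 3, 5 or 6 or vehicle replicate 3, 4, 5 or 6 (0.0540 to 0.0708). FBXW7, the substrate-binding part of a ubiquitin ligase, fell from 167 ± 38.9 to 91.9 ± 14.2 CPM (edgeR adjusted p = 0.0142), while MIR4453HG, divergent from it with starts 172 bp apart, had 3.75 ± 1.58 and 4.43 ± 1.08 CPM. Their pair difference was 1.19 ± 0.23 (limma adjusted p = 0.0173, and 0.0529 without DHT replicate 3).

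Other lncRNAs beside a changed gene followed its sign without passing. SOCS2-AS1 had 4.45, 5.04 and 5.75 CPM in vehicle and 5.05, 7.14 and 8.67 CPM in DHT libraries, a log2 fold change of 0.47 ± 0.15 (edgeR adjusted p = 0.145), and its overlapping partner SOCS2, a suppressor of cytokine signalling, rose by 0.61 ± 0.11 (0.00986). AC106738.2, 3301 bp from the homeobox gene IRX5, had 5.78 ± 1.00 CPM without and 8.30 ± 1.09 CPM with DHT without overlap, a log2 fold change of 0.53 (edgeR adjusted p = 0.110), where IRX5 rose by 0.54 (0.00410). Both pairs thus had closely similar values, and their differences, -0.16 ± 0.17 and -0.02 ± 0.18, did not pass. Reads in any exons shared by overlapping genes, such as SOCS2-AS1 and SOCS2 or ID2-AS1 and ID2, cannot be told apart. SAP30L-AS1 had a log2 fold change of -0.88 ± 0.33 beside -0.91 ± 0.13 for GALNT10, a glycosyltransferase, and ID2-AS1 of -0.67 ± 0.18 beside -0.85 ± 0.14 for ID2. GATA3-AS1, beside the luminal transcription factor gene GATA3, had -0.45 ± 0.17 where GATA3 had -0.59 ± 0.13 (edgeR adjusted p = 0.0253). That call of GATA3 was lost without DHT replicate 1, 3, 4 or 6 or vehicle replicate 1 or 6 (0.0531 to 0.0771) and with no filter (0.131). TP53TG1 had 0.57 ± 0.22 where CROT, a peroxisomal carnitine acyltransferase whose gene starts 136 bp away, rose by 1.62 ± 0.25 (edgeR adjusted p = 0.00274).

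EPB41L4A carries lncRNAs at either end, and their values differed in sign. EPB41L4A-AS1, which hosts a snoRNA and overlaps the other end of the gene on the opposite strand, had 8.48, 11.6 and 17.5 CPM in vehicle and 12.4, 14.7 and 17.6 CPM in DHT libraries, a log2 fold change of 0.33 ± 0.16 (edgeR adjusted p = 0.473). The divergent EPB41L4A-DT fell, and so did the coding gene with all 12 libraries. The call of the coding gene was lost in 8 of the fits with one library left out, as given above. Its log2 fold change in those fits was between -0.70 and -0.81. Of the exon bases of EPB41L4A-AS1, 56.4% are shared with EPB41L4A, so part of its count may belong to the coding gene.

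**Figure D4:**
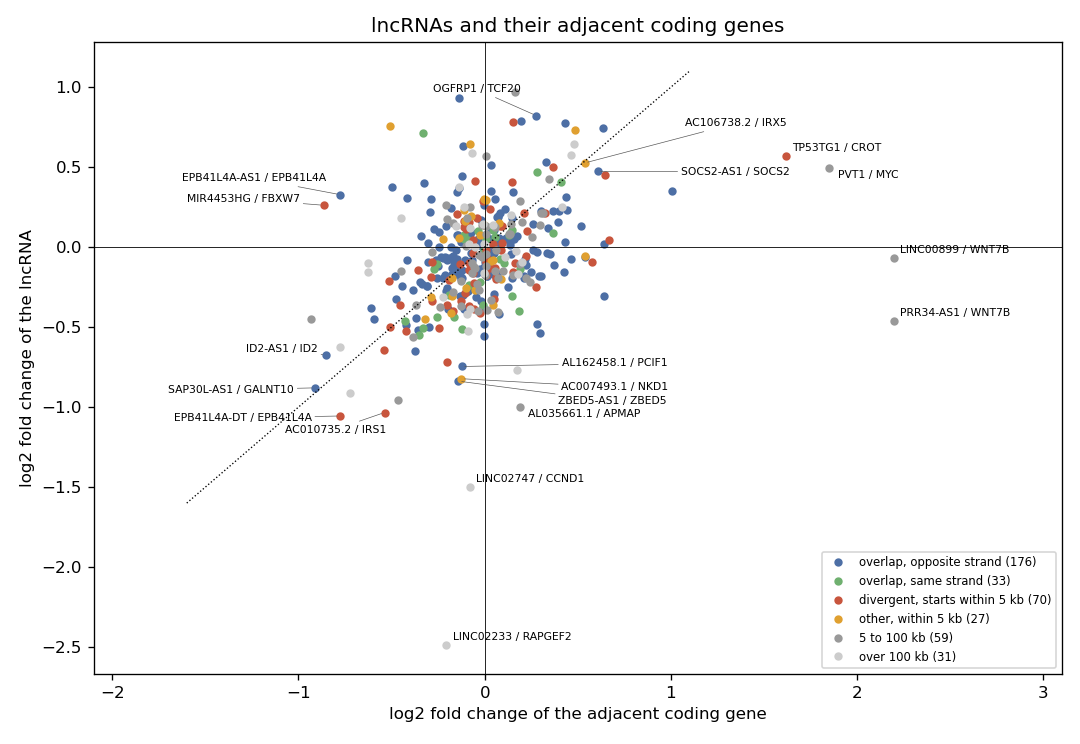
Log2 fold change of the adjacent coding gene (horizontal axis) against that of the lncRNA (vertical axis) for 396 pairs, coloured by their arrangement, with the line of equal change dotted. LINC02233 and LINC02747 lie far below 0 with neighbours near 0, the WNT7B and MYC pairs lie far to the right, and EPB41L4A-DT lies low with a neighbour that fell too.

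Host genes of snoRNAs are transcribed into long RNAs whose introns release the small RNAs that guide chemical modification of ribosomal RNA, and the spliced remainder is often short-lived. Of the 29 listed, 25 were well measured. None passed the test with all 12 libraries, where edgeR called 0 raised and 0 lowered and DESeq2 called 1 raised and 0 lowered. With the replicate number as a block, edgeR called 6 raised and 0 lowered on the same libraries, though the labels do not say that numbers pair the groups. The shares of all genes called by DESeq2 and with the block were not counted. Before adjustment, p was under 0.05 for 6 of the 25 with a higher level and for 0 with a lower one, where 6.59% of all genes were higher and 5.41% lower at that limit. The log2 fold change was above 0 for 21 of the 25 with a median of 0.22, beside -0.08 over all 396 lncRNAs and -0.05 over all genes. With RLE scaling in place of TMM the median was 0.22 too. The list was chosen with earlier results of these data known, so the direction is a description.

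The 6 were SNHG4, SNHG15, SNHG20, SNHG17, SNHG16 and SNHG7. SNHG16 had 75.6, 86.7 and 122 CPM in vehicle and 103, 119 and 128 CPM in DHT libraries (lowest, median and highest), a log2 fold change of 0.38 ± 0.12 (edgeR adjusted p = 0.154). SNHG7 had 69.5, 110.1 and 129 CPM in vehicle and 123, 130.3 and 152 CPM in DHT libraries, a log2 fold change of 0.34 ± 0.14 (edgeR adjusted p = 0.312). SNHG15 had 16.8, 31.9 and 58.6 CPM in vehicle and 34.9, 56.8 and 69.2 CPM in DHT libraries, a log2 fold change of 0.76 ± 0.26 (edgeR adjusted p = 0.191). In all 3 the groups overlapped. The summed level of the 25 hosts ran from 1076 to 2077 CPM in vehicle libraries, with a median of 1323, and from 1336 to 1835 CPM in DHT libraries, with a median of 1634. Vehicle replicate 5 held the highest sum of all 12. Without that library 2 hosts passed as raised and the median was 0.38, and the share of all genes raised in that fit was not counted. Without both replicate 2 libraries 4 of the 25 passed as raised, SNHG3, SNHG4, SNHG17 and SNHG20, with a median of 0.21. In that fit 3.70% of all genes were raised.

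Other abundant hosts had group means that differed by less than the SD between vehicle libraries, such as GAS5, SNHG29 and ZFAS1. GAS5, whose spliced RNA has been reported to bind steroid receptors, had 71.8, 151 and 283 CPM in vehicle and 94.1, 187 and 226 CPM in DHT libraries, a log2 fold change of 0.17 ± 0.29 (edgeR adjusted p = 0.923). SNHG29 had 192 ± 56.1 CPM without and 194 ± 30.3 CPM with DHT, a log2 fold change of 0.02 ± 0.18. ZFAS1 had 49.7, 63.7 and 139 CPM in vehicle and 63.6, 72.6 and 97.8 CPM in DHT libraries, a log2 fold change of 0.01 ± 0.22. The SD between vehicle libraries was 72.4 CPM for GAS5 and 32.7 CPM for ZFAS1.

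**Figure D5:**
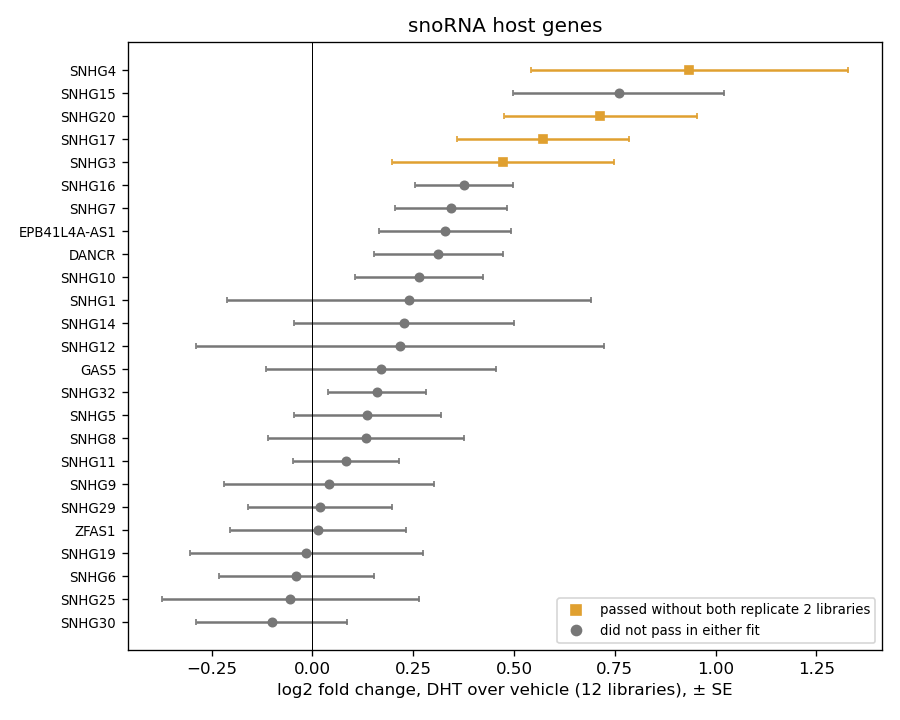
Log2 fold change of DHT over vehicle with 12 libraries (horizontal axis, bars are ± SE) for the 25 snoRNA host genes, ordered by size. Values are above 0 for 21 of 25, from SNHG4 at 0.93 down to SNHG30 at -0.10, and orange squares mark the 4 that passed only without both replicate 2 libraries.

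The 10 most abundant of the lncRNAs held 26.9% of their summed CPM, and none changed past the threshold. Per kilobase of exon, MALAT1, which gathers in nuclear speckles, was the highest of these 10 at 55.2 CPM per kb over the 12 libraries. It was followed by NORAD, a sponge of Pumilio proteins, at 43.9, GAS5 at 34.99, SNHG29 at 26.9, FGD5-AS1 at 26.4, SNHG7 at 24.6, OIP5-AS1 at 22.4, EBLN3P at 10.8, NEAT1 at 5.28 and XIST at 4.73 CPM per kb. The order was not tested, and SNHG29, FGD5-AS1, SNHG7 and OIP5-AS1 lie closer together than the SD of SNHG29 over vehicle libraries (56.1 CPM on 7176 exon bases). MALAT1 and NORAD likewise lie closer together than the SD of MALAT1 over vehicle libraries (214 CPM on 8829 exon bases). Exon length here is the union over all annotated transcripts, which lowers the value of genes with many alternative exons.

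A list of well-known lncRNAs, most of them nuclear or bound to chromatin and with the largely cytoplasmic NORAD and OIP5-AS1 among them, had no member that changed. Of the 14 listed, 9 were well measured, and 1 more was tested but is not among the chosen lncRNAs. None of the 9 passed or had an unadjusted p under 0.05. MALAT1 had 162, 538 and 803 CPM in vehicle and 109, 422 and 865 CPM in DHT libraries (lowest, median and highest), a log2 fold change of -0.23 ± 0.42 (edgeR adjusted p = 0.930). NEAT1, the scaffold of paraspeckles, had 38.9, 145 and 189 CPM in vehicle and 18.8, 105 and 158 CPM in DHT libraries, a log2 fold change of -0.40 ± 0.43 (edgeR adjusted p = 0.853). XIST, the RNA that silences an X chromosome, had 39.5, 132 and 186 CPM in vehicle and 20.3, 130.6 and 190.0 CPM in DHT libraries, a log2 fold change of 0.02 ± 0.46 (edgeR adjusted p = 0.995). In all 3 the lowest library of either group was replicate 2. The summed level of the 9 was 678 CPM in vehicle replicate 2, where the other 5 vehicle libraries had at least 1383, and 606 CPM in DHT replicate 2, where the others had at least 1082. Of the rest, OIP5-AS1 had 279 ± 42.4 CPM without and 290 ± 31.7 CPM with DHT, and HOTAIR, a transcript of the HOXC cluster, had 13.95 ± 5.74 and 12.3 ± 4.19 CPM. JPX and FTX, neighbours of XIST, had log2 fold changes of -0.16 ± 0.24 and -0.15 ± 0.39, NORAD -0.05 ± 0.22 and FIRRE, which anchors chromatin loops, -0.09 ± 0.25.

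Host genes of microRNAs had no consistent direction. Of the 23 listed, 9 were well measured, and 5 more were tested but are not among the chosen lncRNAs. None of the 9 passed. One had an unadjusted p under 0.05. MIR4435-2HG had 14.01, 17.3 and 19.6 CPM in vehicle and 9.20, 12.8 and 14.7 CPM in DHT libraries, a log2 fold change of -0.42 ± 0.14 (edgeR adjusted p = 0.175). DLEU2, the host of the miR-15a and miR-16-1 cluster, had 12.9, 40.4 and 52.9 CPM in vehicle and 13.1, 28.5 and 32.4 CPM in DHT libraries, and passed as lowered without both replicate 2 libraries (edgeR adjusted p = 0.609 with 12 and 0.0279 with 10). The remaining hosts had log2 fold changes of -0.13 ± 0.37 (MIR34AHG), -0.08 ± 0.41 (MIR210HG), -0.04 ± 0.53 (MIR22HG), -0.02 ± 0.35 (MIR600HG), 0.20 ± 0.23 (MIR4458HG), 0.29 ± 0.32 (MIRLET7BHG) and 0.42 ± 0.39 (MIR29B2CHG). In 6 of these 7 the standard error exceeded the size of the change.

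A chosen list of lncRNAs known from prostate cells or as androgen targets had few well-measured members. It does not hold every such lncRNA. Of the 23 listed, 4 were well measured, and 5 more were tested but are not among the chosen lncRNAs. None of the 4 passed. SOCS2-AS1, described above, was the one with an unadjusted p under 0.05. CBR3-AS1 had 6.15, 9.26 and 11.96 CPM in vehicle and 8.20, 11.7 and 15.3 CPM in DHT libraries, a log2 fold change of 0.35 ± 0.18 (edgeR adjusted p = 0.505), where the overlapping gene DOP1B rose by 1.00 ± 0.14 (0.000870). DRAIC, a transcript linked to prostate cancer, had 22.5 ± 4.58 CPM without and 18.6 ± 4.51 CPM with DHT, a log2 fold change of -0.28 ± 0.18. TMPO-AS1 had 8.99 ± 2.06 and 7.29 ± 2.39 CPM, a log2 fold change of -0.29 ± 0.23.

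By kind of name, the 8 lowered lncRNAs were spread over 4 clone names (of 159), 2 LINC names (of 32), 1 antisense name (of 95) and 1 divergent name (of 23), and the raised one fell among 50 other names. Median log2 fold changes were -0.13 for LINC names, -0.11 for divergent names, -0.08 for antisense names, -0.08 for clone names, -0.05 for 12 microRNA hosts by name and -0.13 for other names. Of these kinds the snoRNA hosts alone had a median above 0.

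Promoter windows were found by symbol for 176 of the 396. Steroid receptors of this class bind DNA at a palindrome of AGAACA half-sites, and the half-site was searched on both strands. It occurred in 17 of the 176 windows (9.66%), beside 17.5% of the windows of all 27305 genes in the table, and in 0 of the 4 windows of lncRNAs that changed. The palindrome, AGAACA and TGTTCT with any 3 bases between them, occurred in 1 window of all genes and in none of the 176. Without the replicate 2 libraries, 1 of 7 windows of raised lncRNAs and 1 of 10 windows of lowered ones hold the half-site. The raised one is SNHG17, shown with the half-site in capitals (minus strand, chr20:38435279-38435578).
SNHG17: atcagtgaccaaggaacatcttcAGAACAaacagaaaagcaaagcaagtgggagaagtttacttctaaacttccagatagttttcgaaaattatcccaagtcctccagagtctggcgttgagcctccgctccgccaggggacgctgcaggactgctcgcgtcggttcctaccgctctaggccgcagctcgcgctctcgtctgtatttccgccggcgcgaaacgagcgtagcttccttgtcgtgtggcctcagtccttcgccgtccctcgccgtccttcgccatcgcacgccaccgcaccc
A match of such a short motif is a description of the sequence, and receptor binding was not measured in these files.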

How the data were processed

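RNA was measured in 12 libraries of MDA-MB-453 cells, 6 vehicle and 6 DHT. Reads were aligned with STAR to GRCh38 and counted with featureCounts, per the submitters' processing notes; their versions, the strand setting and the handling of reads with several matches are not stated there. The deposited table holds estimated counts, not whole numbers for 39.6% to 46.7% of values above 0 (tolerance 0.005), so they were rounded to whole numbers; the planned test of counts was kept. A gene whose record is broken over 3 lines was left out, which leaves 60670. A second deposited table gives the authors' own log2 CPM, log2 fold changes and p-values adjusted for multiple tests; the first of these set the level limit of 2.0, and the fold changes and adjusted p-values were used only where named.

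Counts were tested with edgeR 4.0.16 (R 4.3.3; filterByExpr, TMM, quasi-likelihood, group as the only term; 16355 genes; Benjamini-Hochberg; threshold 0.05). CPM values use TMM-scaled totals, and levels per kilobase use the length of exons in the authors' annotation. Pair differences were tested with limma 3.58.1 on log2 CPM with a prior count of 2 (13 of 896 pairs passed). Both were run on simulated counts drawn independently for each library, without the shift shared by the replicate 2 libraries. How the fits perform under that shift was not tested. Alternatives were DESeq2 1.42.0, RLE scaling, unrounded counts, no filter, other thresholds and level limits, another neighbour, another prior count, each library left out in turn and a replicate block, with the 2 replicate 2 libraries left out added after the data were seen. Named were the lncRNAs that passed, the 10 most abundant, the tested genes of 4 lists and the neighbours of those that passed, 67 genes in all, 58 of them among the 396; a further 31 lncRNAs were named after their values were seen. The members and lists were chosen with earlier results of these data known. Depth limits precision most in vehicle replicate 6, and some genes are not reported here.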

Additional observations from a re-analysis of the deposited data

Results flagged for a closer look

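A library was marked where its gap to the nearest of the 6 in its group passed Dixon's 95% limit for its share of the group's range, over 98 named genes and 196 groups. Chance marks about 1 group in 20. There were 39 marks, and 24 of them fell on the replicate 2 libraries. No cause of these values was tested.

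In vehicle replicate 2 the lowest values of the group were 2.15 CPM of AL353622.1, 3.19 CPM of JPX, 38.9 CPM of NEAT1, 20.5 CPM of SNHG17 and 25.1 CPM of ZBED5, and the highest were 1540 CPM of CCND1, 39 CPM of LINC00665 and 173 CPM of PCIF1. In DHT replicate 2 the lowest values were 0.957 CPM of AL133325.3, 47.5 CPM of AL162595.1, 13.1 CPM of DLEU2, 72.8 CPM of EBLN3P, 4.37 CPM of HOTAIR, 10.4 CPM of LINC00899, 6.83 CPM of MIR34AHG, 117 CPM of NORAD, 19.8 CPM of PVT1, 30 CPM of SNHG17, 37.3 CPM of SNHG3, 2.1 CPM of SNHG4 and 24 CPM of ZBED5. The highest there were 1300 CPM of CCND1, 51.4 CPM of LINC00665 and 129 CPM of PCIF1. SNHG17, LINC00665, CCND1, PCIF1 and ZBED5 stood apart in the same direction in both libraries.

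Vehicle replicate 5 held the highest value of its group for several snoRNA hosts and other lncRNAs, namely 16.4 CPM of AC007493.1, 11.8 CPM of AC009236.1, 12.7 CPM of MIR4458HG, 19.3 CPM of PRR34-AS1, 10.7 CPM of SNHG30, 110 CPM of SNHG6, 162 CPM of SNHG8, 21.7 CPM of SNHG9, 21.2 CPM of TP53TG1 and 139 CPM of ZFAS1. It held the lowest, 2.77 CPM of AL354984.2.

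Single values elsewhere were 5.76 CPM of AC010735.2, the highest of the group, in DHT replicate 6, 5.21 CPM of EPB41L4A-DT, the highest of the group, in DHT replicate 5, 7.15 CPM of LINC02747, the lowest of the group, in vehicle replicate 4 and 364 CPM of OIP5-AS1, the highest of the group, in vehicle replicate 4.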

How the results depend on the processing

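With all 12 libraries 1 lncRNA was raised and 8 were lowered. The raised count was 8 with DESeq2, 15 without both replicate 2 libraries, 4 with a level limit of 1 log2 CPM, and between 1 and 8 with one library left out, reaching 8 without DHT replicate 2, 3 without vehicle replicate 2 and 4 without vehicle replicate 5. The lowered count was 14 with DESeq2, 19 without both replicate 2 libraries, 4 at an adjusted p under 0.01, 13 with a level limit of 1 and 3 with one of 3 log2 CPM, and between 6 and 11 with one library left out. RLE scaling, unrounded counts and no filter on low counts left both counts within 1.5 times. Of all genes, 1.96% were raised and 0.880% lowered with all 12 libraries, and 3.70% and 1.90% without both replicate 2 libraries. For the other settings the shares over all genes were not counted, so those counts do not set the lncRNAs apart from other genes. The count of pairs whose changes differed was 7, became 13 without both replicate 2 libraries, and ran from 3 (without DHT replicate 3) to 8 with one library left out, with 4 without DHT replicate 6. The cause of these differences was not tested.

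With the replicate number as a block (replicate block), 21 lncRNAs were raised, 27 lowered and 20 pairs differed, and with the block but without both replicate 2 libraries 14 were raised and 13 lowered. The shares of all genes called with the block were not counted. Of the 25 snoRNA hosts the block called 6 raised and 0 lowered, and EPB41L4A was lost with the block but without both replicate 2 libraries (edgeR adjusted p = 0.113). The labels do not say that numbers pair the groups. Deviations of same-numbered libraries from their group means correlated at 0.51, 0.87, 0.44, 0.26, -0.24 and 0.46 for replicates 1 to 6, and not every library correlated best with its own number, so the libraries were not treated as pairs.

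Of the named genes, 23 changed the sign of their log2 fold change in some setting, and none of them had passed the test. Their ranges with one library left out were CCND1 (-0.28 to 0.18), FGD5-AS1 (-0.14 to 0.021), FIRRE (-0.25 to 0.046), FTX (-0.34 to 0.058), HOTAIR (-0.35 to 0.0053), LINC00899 (-0.20 to 0.016), MIR210HG (-0.42 to 0.067), MIR22HG (-0.28 to 0.20), MIR34AHG (-0.32 to 0.072), MIR600HG (-0.22 to 0.16), NORAD (-0.17 to 0.087), PCIF1 (-0.35 to 0.24), SNHG12 (-0.015 to 0.44), SNHG19 (-0.18 to 0.31), SNHG25 (-0.25 to 0.062), SNHG29 (-0.062 to 0.17), SNHG30 (-0.16 to 0.093), SNHG6 (-0.14 to 0.17), SNHG9 (-0.092 to 0.35), URB1-AS1 (-0.24 to 0.041), XIST (-0.17 to 0.24), Z83843.1 (-0.31 to 0.12) and ZFAS1 (-0.075 to 0.28). With the replicate block SNHG19 had 0.13, SNHG25 0.025, SNHG6 0.021 and XIST -0.050. Without both replicate 2 libraries PCIF1 had 0.019, SNHG9 -0.032 and ZFAS1 -0.041, and with the block as well CCND1 had 0.000102, PCIF1 0.014 and SNHG19 0.12. With no filter SNHG19 had 0.0077. The lowest depth, in vehicle replicate 6, limits what can be seen in lncRNAs near 4 CPM.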
